A study of Mus musculus with 10 samples.

Results

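Arc, Egr1, Egr2, Egr3, Egr4, Nr4a1, Nr4a2, Nr4a3 and Npas4 are activity-regulated genes of neurons, and all 9 were chosen by name. They are 9 of the 48526 genes counted in the study, and all 9 passed the filter on low counts that left 13452 genes to test. Their RNA was measured by polyA RNA sequencing in neurons cultured from the cortex of wild-type C57BL/6J mouse embryos at stage E16.5. All cultures received AraC, which kills dividing cells, at 0.5 µM on day 3 to 4 in vitro, and a lentivirus. In the Control group this was a control virus without added BDNF, and in the BDNF group the same virus with BDNF, a neurotrophin that acts through the receptor TrkB. In the H2BE group the virus expressed H2BE, a variant of histone H2B, from a constitutively active promoter and no BDNF was added, and in the H2BE+BDNF group the H2BE virus was combined with BDNF. RNA was taken 24 h after BDNF, so the values describe a late time and not the first hours of stimulation. The H2BE groups add H2BE to cells that keep their own genes, in culture and not in cortex.

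Immediate-early genes are transcribed soon after a neuron is stimulated, without new protein synthesis, because their promoters are held ready by factors such as SRF with its ELK partners and CREB, which kinases switch on. BDNF reaches these factors mainly through TrkB, Ras and the ERK kinases. Arc encodes a cytoplasmic and synaptic protein that promotes removal of AMPA receptors from the synapse. The EGR genes encode zinc-finger transcription factors that bind GC-rich sites, the NR4A genes encode orphan nuclear receptors that act without a known hormone, and Npas4 encodes a bHLH-PAS transcription factor known for its dependence on calcium entry.

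Promoter sequence is given for a pair of genes that rose under both viruses, Egr2 and Egr4, and for a pair that showed small or no responses, Nr4a1 and Nr4a2. RefSeq windows on GRCm38.p6 were matched by symbol for 6 of the 9 genes, namely Egr2, Egr4, Nr4a1, Nr4a2, Nr4a3 and Npas4. Arc, Egr1 and Egr3 are named only. Each sequence below is the 250 bases before an annotated RefSeq start, 5′ to 3′ on the strand of the gene. Capitals mark matches, on either strand, to the core of the CREB site (TGACG), to the CArG box bound by SRF, to the EGR site (GCGNGGGCG) and to the TATA box (TATAAA).
Egr2, chr10:67537619-67537868, plus strand: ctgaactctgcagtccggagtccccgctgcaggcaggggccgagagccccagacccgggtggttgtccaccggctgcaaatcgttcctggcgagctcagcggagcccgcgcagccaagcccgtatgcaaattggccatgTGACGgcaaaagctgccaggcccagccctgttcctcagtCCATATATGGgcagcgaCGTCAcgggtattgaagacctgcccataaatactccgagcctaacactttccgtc
Egr4, chr6:85513590-85513839, minus strand: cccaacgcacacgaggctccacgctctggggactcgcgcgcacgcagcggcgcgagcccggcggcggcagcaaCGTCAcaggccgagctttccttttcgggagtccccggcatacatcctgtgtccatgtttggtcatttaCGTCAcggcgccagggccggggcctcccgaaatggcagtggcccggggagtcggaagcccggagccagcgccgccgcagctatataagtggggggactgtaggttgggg
Nr4a1, chr15:101266596-101266845, plus strand: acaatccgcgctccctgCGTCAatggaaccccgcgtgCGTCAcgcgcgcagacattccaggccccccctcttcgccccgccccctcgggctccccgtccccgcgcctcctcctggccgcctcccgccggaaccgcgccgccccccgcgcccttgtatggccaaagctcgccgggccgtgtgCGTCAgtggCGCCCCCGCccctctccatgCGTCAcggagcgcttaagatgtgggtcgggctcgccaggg
Nr4a2, chr2:57124004-57124253, minus strand: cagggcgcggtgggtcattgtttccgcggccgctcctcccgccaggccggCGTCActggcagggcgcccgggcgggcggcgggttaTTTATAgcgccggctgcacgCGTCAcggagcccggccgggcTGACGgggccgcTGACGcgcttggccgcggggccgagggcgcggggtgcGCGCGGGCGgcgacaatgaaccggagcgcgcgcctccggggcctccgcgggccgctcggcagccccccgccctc

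The CREB core was present 2 times in the windows printed for Egr2 and Egr4 and 4 times in those of Nr4a1 and Nr4a2. RefSeq gives 5 windows for Egr2, and 3 overlapping ones, with that printed among them, hold 2 cores each while the other 2 hold 0. Of the 2 Egr2 windows clear of annotated exons, the one printed holds the core and the other does not. The core was also found 4 times in the Nr4a3 window and 2 times in the Npas4 window, which overlap annotated exons and are not printed. The core was thus found in the promoters of genes with large and with small responses. It occurs in 17.8% of the 32841 promoter windows searched in the same way. A CArG box lies between the CREB cores in Egr2 (1.47% of all windows hold one). Single matches to the EGR site lie in the Nr4a1 and Nr4a2 windows (4.7% of all windows), and the capitals TTTATA in Nr4a2 are a TATA box match on the reverse strand (12.4%). The full CREB site TGACGTCA, which would contain the core and is held by 1.55% of all windows, and the NR4A site AAAGGTCA, held by 1.34%, had no match in the windows of these 6 genes. A match describes letters and shows no binding.

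In the deposited files 2 libraries were not separate samples. Replicate 3 of Control had more counts than replicate 1 at 0 of 48526 genes, and the same held in BDNF, so replicates 1 and 3 were counted as 1 sample in each, which left 2 samples in each of the 4 groups. Totals ran from 5058074 to 14142545 counts per library, and 3 counts corresponded to 0.212 to 0.593 CPM (counts scaled to a common library size). The labels do not say that replicates came from separate cultures, so the p-values measure the spread between these samples, which may be technical. H2bc21, the gene that encodes H2BE, stood at 5.28 ± 0.074 CPM (SD, n = 2) in Control and 39.2 ± 5 in H2BE, and at 3.99 ± 0.15 in BDNF and 33.6 ± 2.2 in H2BE+BDNF, as the labels of the virus say. Marker genes of neurons summed to 4800 to 5470 CPM in every sample. Of all genes tested, 16.8% rose and 14.6% fell with BDNF under the control virus, and 13.4% rose and 12.3% fell under the H2BE virus. Of the 5 neuron markers tested, 1 rose and 2 fell with BDNF under the control virus, and 1 rose and 3 fell under the H2BE virus. Of 5 markers of excitatory neurons 2 rose and 2 fell, and 2 rose and 3 fell. Of 5 interneuron markers 1 rose and 0 fell, and 1 rose and 2 fell. Of 5 astrocyte markers tested 1 rose and 0 fell, and 0 rose and 1 fell. Those of microglia summed to 5.35 to 9.81 CPM without BDNF and 22 to 23.8 with it, of which Cd68 alone held 3.37 to 5.19 and 17.1 to 19.3. Of 3 tested, 1 rose under the control virus, Cd68, and 2 under the H2BE virus, Cd68 and Aif1, and 0 fell. Aif1 had a log2 difference of -0.75 (edgeR adjusted p = 0.336) and 2.95 (adjusted p = 0.0215) in that order. It stood at no more than 1.55 CPM in any sample. Cx3cr1, P2ry12, Tmem119 and Csf1r were too low to test, with Tmem119 at 0 in every sample without BDNF and at most 0.144 CPM with it. Those of the oligodendrocyte lineage summed to 40.4 to 48.8 CPM without and 73.9 to 85.2 with BDNF, where 1 of 6 tested, Mbp, rose under each virus, and Sox10 was at 0 in every sample without BDNF. Those of progenitors and dividing cells summed to 106 to 119 and 230 to 244, of which Vim alone held 54.9 to 67.2 and 169 to 189, and of 8 tested 5 rose and 1 fell under the control virus and 2 rose under the H2BE virus. Their part in the results below was not tested.

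Under the control virus, BDNF raised 7 of the 9 genes. Arc, Egr1 and Egr2 rose 15.6-fold, 12.6-fold and 8.65-fold, Egr4 rose 2.72-fold, and Nr4a1, Nr4a3 and Npas4 rose by no more than 1.32-fold. Egr3 and Nr4a2 did not pass the test. Of all 13452 genes 16.8% rose in this comparison (edgeR quasi-likelihood test, Benjamini-Hochberg adjusted p under 0.05). The median log2 change was 0.60 over the 9 genes and -0.01 over all genes tested. The count was 4 of 9 without Control replicate 1 and 4 of 9 by DESeq2. In bulk RNA fewer cells with a transcript and less of it per cell cannot be told apart.

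**Figure D1:**
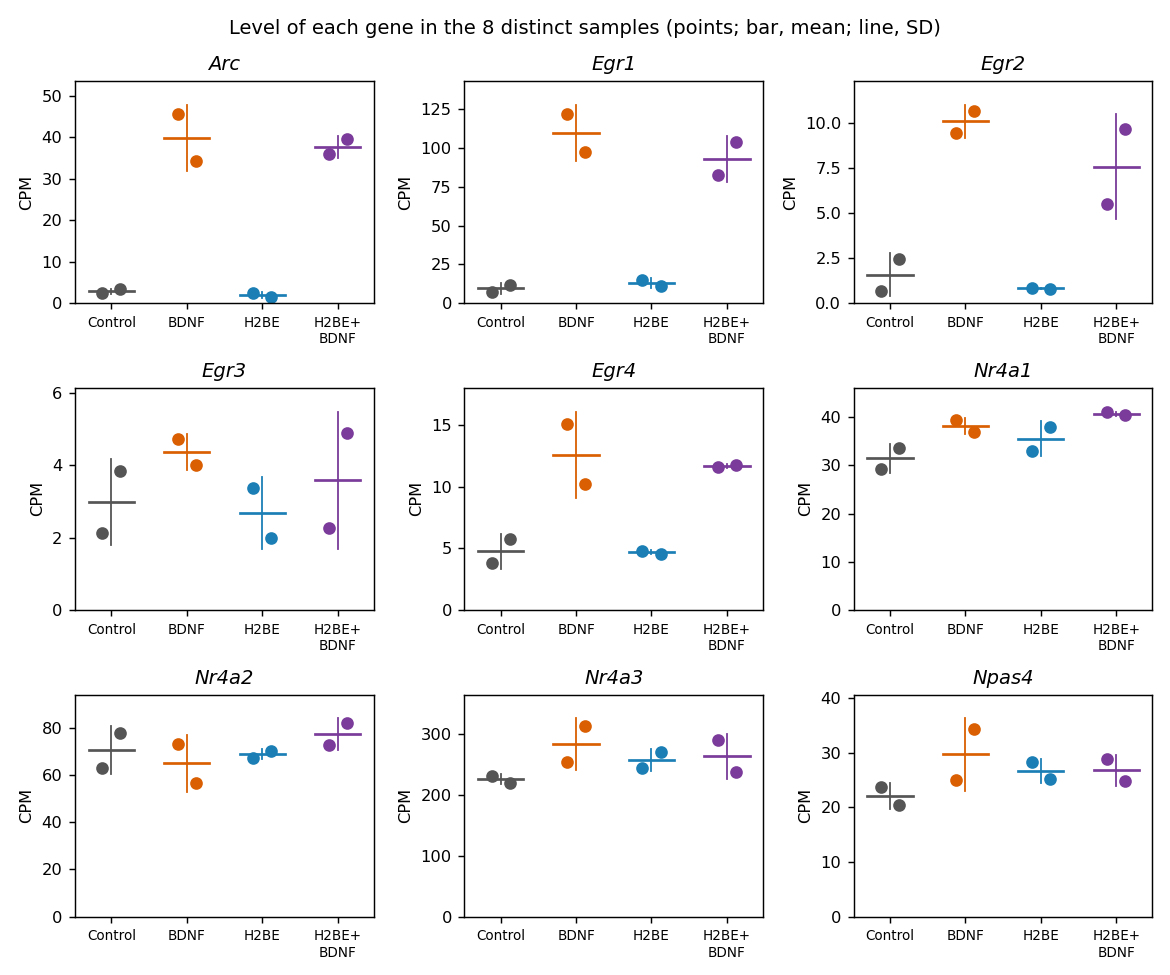
Level of each gene in CPM (linear axis from 0, own scale per panel) in the 2 samples of each of the 4 groups. Points are samples, with replicates 1 and 3 of Control and BDNF averaged as 1 sample, and the bars give mean and SD. Arc, Egr1, Egr2 and Egr4 are higher in every BDNF sample than in every sample without BDNF, whereas the samples of the NR4A genes and Npas4 lie close together in all groups.

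Arc (chromosome 15, 74669083 to 74672570, minus strand, 3 exons; coordinates are those of GENCODE M21 on mm10) had the largest change of the 9. It measured 2.45 and 3.31 CPM in the Control samples, 45.5 and 34.2 in BDNF, 2.4 and 1.39 in H2BE, and 35.9 and 39.6 in H2BE+BDNF. Both groups with BDNF lay far above both groups without it. The H2BE+BDNF samples fell inside the range of the BDNF samples. The Control and H2BE samples lay side by side, as Control replicate 1 alone, before averaging with replicate 3, stood at 2.24 CPM. Its log2 change with BDNF was 3.96 ± 0.22 (SE; adjusted p = 2.26e-09) under the control virus and 4.24 ± 0.26 (adjusted p = 1.54e-08) under the H2BE virus. It ranked 15th by log2 change of all 13452 genes in the former comparison and 10th in the latter. The counts behind the low groups were small, as H2BE replicate 3 held 7 Arc counts, and the BDNF libraries held 274 to 547.

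Egr1, the most studied EGR factor and often used as a marker of neuronal activity, is a gene of 2 exons on chromosome 18 (34859823 to 34864984, plus strand). Its levels were 7.17 and 12 CPM in Control, 122 and 97.3 in BDNF, 15.2 and 10.9 in H2BE, and 82.7 and 104 in H2BE+BDNF. The Control and H2BE samples overlapped, as did the BDNF and H2BE+BDNF samples, and each pair with BDNF stood apart from those without. Egr1 rose 12.6-fold (log2 3.65 ± 0.18 SE, adjusted p = 1.01e-09) under the control virus and 6.92-fold (2.79 ± 0.19, adjusted p = 4.33e-08) under the H2BE virus.

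Egr2, a further EGR factor (chromosome 10, 67535475 to 67542188, plus strand), had the lowest level per kilobase of the 4 genes that rose under both viruses. It had 0.694 and 2.44 CPM in Control and 9.43 and 10.7 in BDNF, against 0.846 and 0.793 in H2BE and 5.5 and 9.67 in H2BE+BDNF. All samples with BDNF were above all samples without it. The counts were few, as Control replicates 1 and 2 held 9 and 14 Egr2 counts and the H2BE samples 6 and 4. The log2 change was 3.11 ± 0.38 SE (adjusted p = 1.26e-05) under the control virus and 3.15 ± 0.5 (adjusted p = 0.000236) under the H2BE virus.

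Egr4 (chromosome 6, 85511121 to 85513589, minus strand) rose by less than Egr1 and Egr2. The samples measured 3.77 and 5.75 CPM in Control, 15.1 and 10.2 in BDNF, 4.79 and 4.56 in H2BE, and 11.6 and 11.8 in H2BE+BDNF. No BDNF sample overlapped a sample without BDNF. The change was 2.72-fold (log2 1.44 ± 0.22 SE, adjusted p = 0.00013) and 2.48-fold (1.31 ± 0.26, adjusted p = 0.00128).

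Egr3 (chromosome 14, 70077203 to 70082614, plus strand), the remaining EGR gene, did not pass the test. It lay at 2.14 and 3.84 CPM in Control, 4.73 and 4.02 in BDNF, 3.38 and 1.98 in H2BE, and 2.27 and 4.91 in H2BE+BDNF. Under the control virus both BDNF samples were above both Controls, and under the H2BE virus the samples with and without BDNF overlapped. Its log2 difference was 0.60 (95% interval -0.13 to 1.33, adjusted p = 0.204) under the control virus and 0.33 (-0.56 to 1.21, adjusted p = 0.617) under the H2BE virus. These intervals include both no change and a rise of more than 2-fold. It passed with all 10 libraries as replicates, where replicate 3 repeats counts of replicate 1 (0.83, adjusted p = 0.0226).

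**Figure D2:**
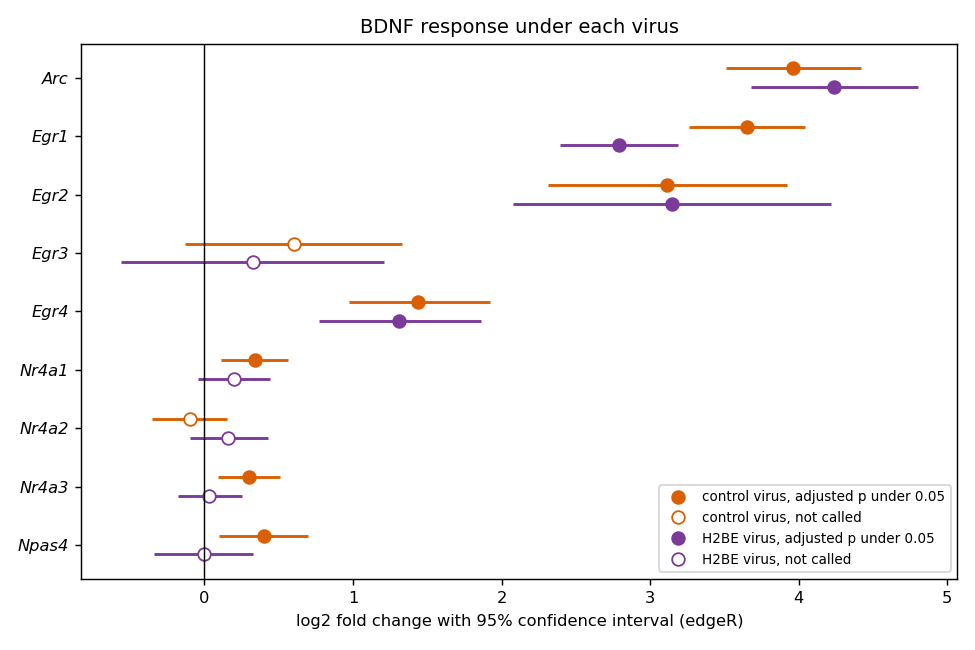
Log2 fold change with BDNF and its 95% interval for each of the 9 genes under the control virus and under the H2BE virus (edgeR, 2 samples per group). Arc, Egr1, Egr2 and Egr4 lie to the right of 0 under both viruses, and the other 5 lie within 0.60 of 0.

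The NR4A genes were the most abundant of the 9 per kilobase of exon in Control, and their changes were small. Nr4a1 (Nur77; chromosome 15, 101254269 to 101274795, plus strand) measured 29.3 and 33.6 CPM in Control and 39.4 and 37 in BDNF, and 33 and 38 in H2BE and 41 and 40.4 in H2BE+BDNF. Both BDNF samples were above both Controls, and both H2BE+BDNF samples above both H2BE samples. The rise was 1.26-fold under the control virus (log2 0.34 ± 0.1 SE, adjusted p = 0.0224). Under the H2BE virus the log2 difference was 0.20 (95% interval -0.04 to 0.44, adjusted p = 0.211). That call under the control virus ended when Control replicate 1 was left out (0.19, adjusted p = 0.377), without BDNF replicate 1 (0.26, adjusted p = 0.084), with replicate 3 in place of replicate 1 in both groups (0.23, adjusted p = 0.0958) and by DESeq2 (0.33, adjusted p = 0.129).

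Nr4a2 (Nurr1; chromosome 2, 57106830 to 57124003, minus strand), known for its role in dopamine neurons, measured 63.1 and 77.9 CPM in Control, 73.2 and 56.6 in BDNF, 67.2 and 70.1 in H2BE, and 72.6 and 82 in H2BE+BDNF. The groups overlapped under the control virus, and under the H2BE virus both BDNF samples lay above both others. The log2 difference with BDNF was -0.10 (95% interval -0.35 to 0.15, adjusted p = 0.543) and 0.16 (-0.1 to 0.43, adjusted p = 0.368). Without BDNF replicate 1 Nr4a2 fell by 0.29 under the control virus (adjusted p = 0.0389).

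Nr4a3 (Nor1; chromosome 4, 48045153 to 48086447, plus strand) had the highest level per kilobase of the 9 in every group. It measured 231 and 219 CPM in Control, 253 and 312 in BDNF, 244 and 270 in H2BE, and 289 and 237 in H2BE+BDNF. BDNF samples exceeded Controls, while H2BE+BDNF and H2BE samples overlapped. The log2 change was 0.30 ± 0.098 SE (adjusted p = 0.0279) under the control virus and 0.03 (95% interval -0.18 to 0.25, adjusted p = 0.845) under the H2BE virus. The former call ended without BDNF replicate 2 (0.13, adjusted p = 0.276), without Control replicate 1 (0.33, adjusted p = 0.0904) or 2 (0.26, adjusted p = 0.133), with the length and GC correction (0.23, adjusted p = 0.0778) and by DESeq2 (0.31, adjusted p = 0.195).

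Npas4 (chromosome 19, 4984355 to 4990316, minus strand, 6 exons) measured 23.8 and 20.4 CPM in Control, 25 and 34.3 in BDNF, 28.3 and 25.2 in H2BE, and 28.8 and 24.8 in H2BE+BDNF. It was higher in both BDNF samples than in both Controls, and BDNF replicate 2 was the highest of all samples. Its log2 change was 0.40 ± 0.14 SE (adjusted p = 0.0412) under the control virus, and its fold under the H2BE virus was 0.997 (95% interval 0.791 to 1.26, adjusted p = 0.988). It no longer passed without BDNF replicate 2 (0.16, adjusted p = 0.427), without Control replicate 1 (0.52, adjusted p = 0.0892) or 2 (0.33, adjusted p = 0.177), without H2BE replicate 2 (0.40, adjusted p = 0.0513), with only the Control and BDNF libraries (0.41, adjusted p = 0.0634) and by DESeq2 (0.42, adjusted p = 0.128).

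Under the H2BE virus BDNF raised 4 of the 9 genes, Arc, Egr1, Egr2 and Egr4, where 13.4% of all genes rose. These 4 passed under both viruses in all 17 alternative analyses run. Over both viruses together, with 4 samples against 4, 5 of the 9 rose, where 21.1% of all genes did. They were the same 4 with Nr4a1 (log2 0.27 ± 0.077 SE, adjusted p = 0.0108), which did not pass without Control replicate 1 (0.20, adjusted p = 0.104), without H2BE replicate 2 (0.21, adjusted p = 0.0881) or by DESeq2 (0.27, adjusted p = 0.0688). Nr4a3 missed the threshold at 0.17 (adjusted p = 0.0692) and passed it in 6 alternatives, the replicate block among them (0.16, adjusted p = 0.0227). The comparisons under the 2 viruses share no samples. A gene that passes under 1 virus only is not thereby shown to respond differently between them.

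The difference between the BDNF responses under the 2 viruses was therefore tested itself, and 0 of the 9 genes passed, where 1.15% of all genes did. With edgeR 1 of the 9 had an unadjusted p under 0.05. The share of all genes at that unadjusted threshold was not worked out, so this count has no background beside it. DESeq2 gave an adjusted p for 2 of the 9, called 0, and gave none for Egr1, and 0 of the 9 had an unadjusted p under 0.05 with it. The gene with edgeR was Egr1, whose response was smaller under the H2BE virus by 0.86 on the log2 scale (difference -0.86, 95% interval -1.49 to -0.23, edgeR unadjusted p = 0.0103, adjusted p = 0.163). Leaving out 1 library at a time moved this value between -1.17 and -0.36, and it was -1.02 without BDNF replicate 2. It passed with no filter on low counts (-0.87, edgeR adjusted p = 0.0017). That fit gave smaller errors for Egr1 from the same counts. For Egr1 with BDNF under the control virus the SE was 0.12 rather than 0.18. The edgeR adjusted p there was 3.71e-197 rather than 1.01e-09, with 2 samples per group. For Arc the difference was 0.27 with an interval of -0.68 to 1.23, and for Egr2 0.04 with an interval of -1.39 to 1.47, so a response larger by 2-fold under the H2BE virus lies inside both intervals. For Npas4 it was -0.41 (-0.86 to 0.04) and for Nr4a3 -0.27 (-0.56 to 0.03). Without BDNF replicate 1 both passed (Npas4 -0.61, adjusted p = 0.0403, and Nr4a3 -0.42, adjusted p = 0.022).

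The H2BE virus alone changed none of the 9 genes beyond the threshold. The samples tested under the control virus are replicates 1 and 2 and those under the H2BE virus replicates 2 and 3. Replicate number and virus are thus partly confounded. Without BDNF 0 of 9 passed, where 2.13% of all genes did, with BDNF 0 of 9 (0.0223% of all genes), and over both BDNF states 0 of 9 (0.164%). DESeq2 gave an adjusted p for only 3, 1 and 6 of the 9 in these comparisons and called 0 of them, with 0 of the 9 at an unadjusted p under 0.05 in each. At an unadjusted p under 0.05, edgeR gave 1, 1 and 0 of the 9. Here too the share of all genes at the unadjusted threshold was not worked out, so the counts have no background. Egr1 was the gene without BDNF, at log2 0.65 (95% interval 0.09 to 1.21, adjusted p = 0.205), with the samples of the 2 groups overlapping. It passed with no filter on low counts (0.64, adjusted p = 0.016) and with only the Control and H2BE libraries in the fit (0.64, adjusted p = 0.0353), where Nr4a3 passed too (0.19, adjusted p = 0.0307). With BDNF it was Nr4a2, at 0.26 (0.01 to 0.5, adjusted p = 0.416), for which DESeq2 gave no adjusted p, and it passed without BDNF replicate 1 (0.45, adjusted p = 0.0128). Arc differed by -0.38 (-1.28 to 0.53) without BDNF and by -0.10 (-0.4 to 0.2) with it, so the interval was wide where its counts were low.

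**Figure D3:**
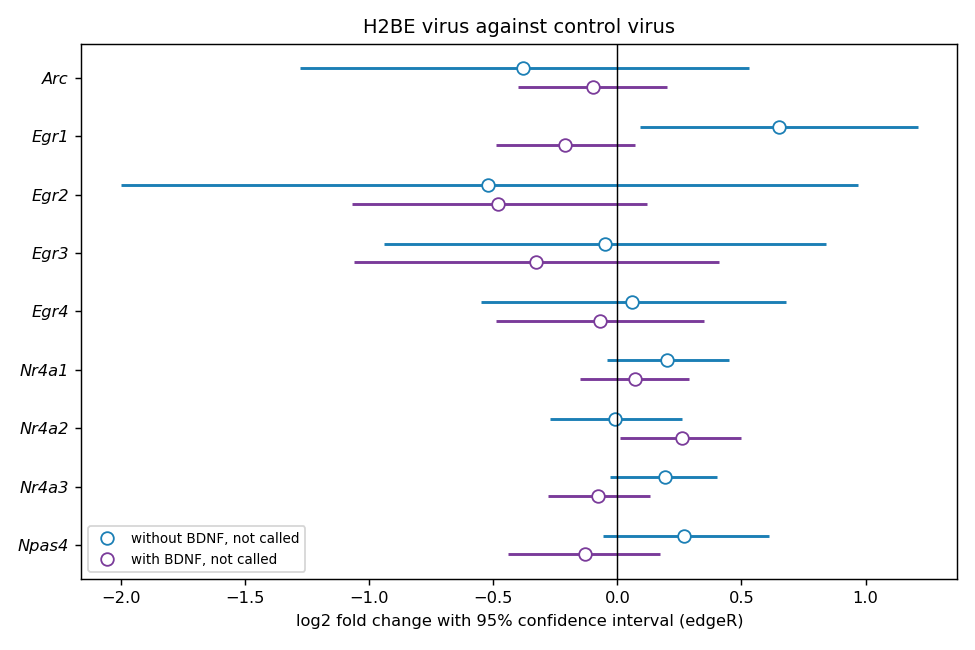
Log2 fold change between the H2BE and control viruses, without and with BDNF, with 95% intervals (edgeR, 2 samples per group). Intervals are wide for the low-count genes Arc, Egr2 and Egr3 without BDNF and narrow for the NR4A genes, and no value passed the adjusted threshold.

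Levels can be set beside each other between genes once they are divided by exon length. In Control the order was Nr4a3 at 37.6 CPM per kilobase, Nr4a2 at 17.4, Nr4a1 at 8.97, Npas4 at 5.34, Egr4 at 2.22, Egr1 at 2.14, Arc at 0.942, Egr3 at 0.678 and Egr2 at 0.461. Samples overlapped between Egr4 and Egr1, between Arc and Egr3 and between Egr3 and Egr2, so these neighbours were not separated. With BDNF the order was Nr4a3 at 47.2, Egr1 at 24.5, Nr4a2 at 16, Arc at 13, Nr4a1 at 10.9, Npas4 at 7.18, Egr4 at 5.89, Egr2 at 2.97 and Egr3 at 0.992. Here Nr4a2 overlapped Arc, Arc overlapped Nr4a1 and Npas4 overlapped Egr4. Egr1 thus went from the sixth place to the second and Arc from the seventh to the fourth. Among 13415 genes with a length, 15.6% lay below Arc in Control and 69.8% in BDNF, and for Egr1 27.9% and 83.5%.

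**Figure D4:**
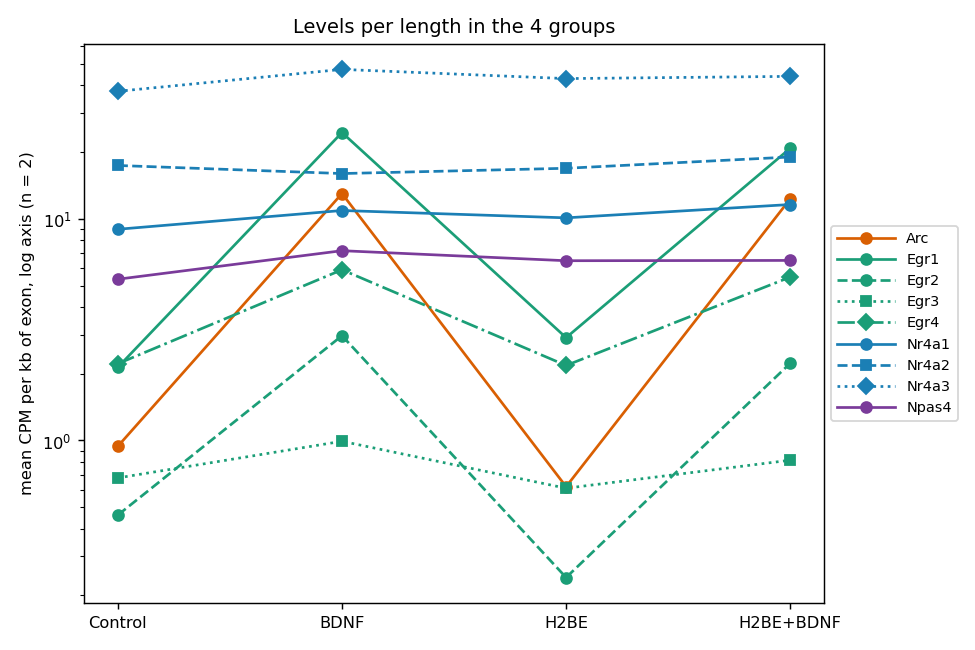
Mean level of each gene in CPM per kilobase of exon (log axis) in the 4 groups, 2 samples each. Lines only join the points of a gene. Nr4a3 is the highest in every group, and Arc and Egr1 cross above several NR4A and Npas4 values where BDNF was given.

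The summed level of the 9 genes was 73 to 78.4 CPM per kilobase in Control, 127 to 131 in BDNF, 81 to 85 in H2BE and 123 in both H2BE+BDNF samples. The 3 NR4A genes made up 83.5 to 85.5% of it in Control and 54.8 to 60.5% in BDNF, and the 4 EGR genes 5.54 to 8.87% and 24.1 to 29.2%. The NR4A sum itself was 62.4 to 65.4 CPM per kilobase in Control and 71.6 to 76.6 in BDNF, and the EGR sum 4.04 to 6.95 and 30.5 to 38.1. In the H2BE groups the NR4A share went from 82.4 to 86.1% without BDNF to 58 to 63.6% with it, and the EGR share from 6.16 to 8.2% to 21.2 to 26.6%. The samples with and without BDNF did not overlap in these shares under either virus.

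The 9 genes are compact. Their spans ran from 2.47 to 41.3 kb with a median of 5.96 kb, against 24.9 kb over the tested genes with an annotation, and 8 of the 9 lay below that median. Their longest transcripts had 2 to 8 exons (median 3, against 7). GC content of these transcripts was 47.9 to 68.2%, with Egr4 the highest. None of the 9 overlaps another annotated gene. Nr4a3, with the longest span, and Egr4, with the shortest, had small and moderate responses respectively.

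Which genes most resembled them was read from the root-mean-square difference of centred log2 CPM over the 8 samples, among 10436 genes. Nearest to Arc were Mirt1 (0.55), Akr1b8 (0.60) and Galr1 (0.60), where the median gene differed by 2.01. For Egr1 they were Itga6 (0.35), Akr1b8 (0.39) and St3gal6 (0.42), where the median gene differed by 1.62. The nearest genes thus differed by more for Arc than for Egr1, and so did the median gene. For Nr4a1 they were Nol11 (0.03), Adrb1 (0.06) and Dync2h1 (0.06), where the median gene differed by 0.22. For Npas4 they were Shisa2, Slc18a2 and Prkdc, all at 0.08. These are descriptions, and the samples share the BDNF contrast.

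Other immediate-early genes gave a wider view of the same response. The gene lists here and below were written with earlier results of these data known. Their counts are therefore descriptions and no independent support. Of 27 tested, 19 rose and 2 fell with BDNF under the control virus, with a median log2 change of 0.79, and 19 rose and 1 fell under the H2BE virus, with a median of 0.63, where the medians over all genes were -0.01 and 0. Of all genes 16.8% rose and 14.6% fell under the control virus, and 13.4% rose and 12.3% fell under the H2BE virus. Over the 17 alternatives 16 to 21 rose in the former comparison and 15 to 19 in the latter. Plk2, a kinase at synapses, went from 126 ± 3.2 to 224 ± 1.9 CPM (log2 0.81, adjusted p = 2.58e-08). Homer1, a postsynaptic scaffold gene, went from 109 ± 3.1 to 182 ± 7.8 CPM. Fosb, an AP-1 subunit, rose by 2.32 on the log2 scale under the control virus and by 1.73 under the H2BE virus, and Ptgs2, a prostaglandin synthase, by 3.79 and 3.47. Without BDNF Ptgs2 was low, at 0.724 ± 0.21 CPM in Control and 0.65 ± 0.078 in H2BE. In H2BE replicate 3 it stood at 0.594 CPM, where 3 counts corresponded to 0.593 CPM. Those that fell, named after their values were seen, were Arl4d under both viruses (-0.87 and -0.80) and Jund under the control virus (-0.23). Arl4d passed in all 17 alternatives under the control virus and in 14 under the H2BE virus, and Jund passed in 12.

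Of 17 transcription regulators that act upstream of the 9 genes, 5 rose and 0 fell under the control virus, and 3 rose and 1 fell under the H2BE virus (medians 0.10 and 0). These shares stand beside 16.8% and 13.4% of all genes that rose, and over the 17 alternatives 3 to 8 and 2 to 4 of the regulators rose and 0 and 0 to 3 fell. Elk3, an ETS partner of SRF, rose from 1.45 ± 0.41 to 9.08 ± 1.1 CPM, by 2.70 on the log2 scale (adjusted p = 1.96e-06), and by 2.57 under the H2BE virus. Crem, related to CREB, rose by 0.87 and 0.78, and Mrtfa, an SRF coactivator, by 0.23 and 0.35. Ep300, a histone acetyltransferase and coactivator, stood at 60.9 ± 11 CPM in Control, 92.2 ± 1.2 in BDNF, 81.5 ± 3.8 in H2BE and 78.4 ± 2.8 in H2BE+BDNF. It rose with BDNF under the control virus (0.56, adjusted p = 0.000179), rose with the H2BE virus alone (0.43, adjusted p = 0.0296), and its BDNF response differed between the viruses (-0.61, adjusted p = 0.0419). Mrtfb, another SRF coactivator named after its values were seen, rose with BDNF under the control virus (0.23, adjusted p = 0.0349) and fell under the H2BE virus (-0.26, adjusted p = 0.0313). It also rose with the H2BE virus alone (0.35, adjusted p = 0.0407), so 2 of the 17 passed there, where 2.13% of all genes did, a share that rests on 287 genes and moved to between 2 and 890 genes with 1 library left out. The BDNF rise of Ep300 under the control virus passed in all 17 alternatives, its rise with the H2BE virus alone in 11 (log2 0.25 to 0.57) and its difference of responses in 9 of 16 (-0.75 to -0.38). Among the settings that ended the call for the difference were leaving out Control replicate 1 and either H2BE replicate. Mrtfb passed in 11, 11 and 10 of 17 in the order given, and Mrtfa in 11 under the control virus and 15 under the H2BE virus.

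A further list of 16 genes held partners of the encoded proteins together with relatives of such partners. Of all genes 16.8% and 13.4% rose and 14.6% and 12.3% fell under the control and H2BE viruses. Of the 16 listed genes 4 rose and 7 fell under the control virus, and 2 rose and 7 fell under the H2BE virus. Over the 17 alternatives 4 to 7 and 1 to 3 rose, and 6 to 7 fell in both comparisons. The genes that rose, named after their values were seen, were Nab2 and Nab1, corepressors of the EGR factors, under both viruses, and Rxra and Arnt2 under the control virus. Nab2 rose by 1.76 (adjusted p = 4.37e-05) and 1.22 (adjusted p = 0.00362), and Nab1 by 0.43 and 0.32. Rxra, a nuclear receptor that pairs with Nr4a1 and Nr4a2 proteins, rose by 0.99 under the control virus and had a log2 difference of 0.31 under the H2BE virus (adjusted p = 0.197). Arnt2, a partner of Npas4, rose by 0.42 under the control virus and had a log2 difference of 0.11 under the H2BE virus (adjusted p = 0.153). The calls for these genes passed in all 17 alternatives except that of Nab1 under the H2BE virus, which passed in 14. Rxrb, a relative of Rxra also named after its values were seen, fell under both viruses (-0.35, adjusted p = 0.00277, and -0.40, adjusted p = 0.00284). Wasf1, an actin regulator that binds Arc, fell from 208 ± 9.4 to 142 ± 4.7 CPM (-0.56, adjusted p = 2.07e-06) and by 0.50 under the H2BE virus. Camk2b, a kinase gene named after its values were seen, fell under both viruses (-0.24, edgeR adjusted p = 0.00145, and -0.37, adjusted p = 5.66e-05). It passed in all 17 alternatives under each virus. Dnm1 and Dnm3 encode dynamins and Sh3gl2 an endophilin, proteins of the endocytic machinery. These 3 genes fell by 0.25, 0.34 and 0.38 under the control virus and by 0.48, 0.60 and 0.37 under the H2BE virus. Sh3gl3, another endophilin gene named after its values were seen, also fell under both viruses (-0.52, adjusted p = 0.0185, and -0.54, adjusted p = 0.0343). It passed in 13 of 17 alternatives under each virus. Dnm2 (0.14 and 0.06) and Sh3gl1 (0.20 and 0.19), of the same families, did not pass under either virus, though Sh3gl1 passed over both viruses (0.20, adjusted p = 0.0435). Binding of these dynamins and endophilins to Arc was not examined. Of 10 late response genes 8 rose under the control virus and 6 under the H2BE virus, and 0 fell, where 16.8% and 13.4% of all genes rose. Over the 17 alternatives 5 to 8 rose and 0 to 1 fell in the former comparison, and 5 to 7 rose and 0 fell in the latter. Among them, named after their values were seen, Inhba passed in 10 of 17 and Bdnf in 15 under the control virus, and Pcsk1 in 15 under the control virus and 13 under the H2BE virus. Vgf, a neuropeptide precursor, rose by 1.19 under both, Nptx1 by 2.34 and 2.24, Scg2 by 1.16 and 1.25, and Nptx2 by 1.77 and 2.26.

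**Figure D5:**
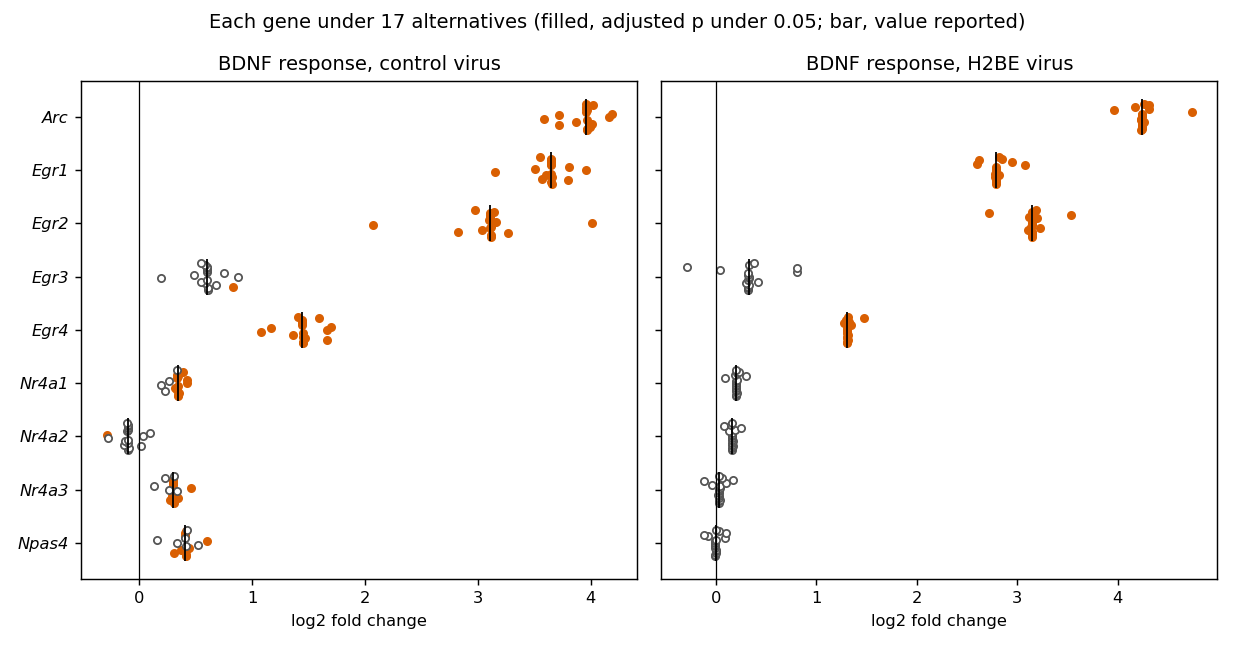
Log2 fold change with BDNF under the control virus (left) and the H2BE virus (right) for each of the 9 genes. The black bar is the value reported, and points are the 17 alternatives, filled where the adjusted p was under 0.05 and open where it was not. Arc, Egr1, Egr2 and Egr4 are filled throughout in both panels, Nr4a1, Nr4a3 and Npas4 are partly filled on the left, and Egr3 and Nr4a2 have 1 filled point each there.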

How the data were processed

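The 10 libraries were mapped to groups by their titles, and every sample column of both tables matched 1 sample. The authors deposited raw counts per Ensembl gene, and a second table of normalized signal values which, as checked on the files, are those counts after division by a single factor per library. Per the submitters' processing notes mm10, SAMtools, DESeq2 and deepTools were used, with no version named. Which aligner, counter, strand setting and annotation made the counts is not given in the sources used here. Tests ran on raw counts, and symbols came from the normalized table.

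Genes were kept with filterByExpr (minimum count 10, minimum total 15), which left 13452 genes with 99.78% of counts. After TMM scaling, edgeR 4.0.16 (with R 4.3.3 and limma 3.58.1) gave quasi-likelihood tests, with all 4 groups in 1 fit of 8 libraries and 4 residual degrees of freedom, and p-values adjusted by Benjamini-Hochberg over all genes within a comparison at 0.05. The SE of a log2 change is its absolute value divided by the square root of the F statistic. The 95% intervals used the total degrees of freedom of each test, which add prior ones, shared over genes, to the residual ones. Replicate 1 of Control and BDNF was tested, and for levels its CPM was averaged with that of replicate 3. CPM per kilobase used the exon union of GENCODE M21, and log2 CPM a prior count of 2. Genes were named by rule: all 9 genes, the 3 genes most like Arc, Egr1, Nr4a1 and Npas4 among those with a mean of at least 5 CPM, and up to 4 genes per list with the smallest p in the BDNF response over both viruses. The 9 genes, the lists and the tests were chosen with earlier results of these data known. Alternatives were RLE size factors, DESeq2 1.42.0, no filter, all 10 libraries, replicate 3 in place of 1, a replicate block and only the groups compared. Further ones were each library left out, a length and GC correction (lowess span 0.3) and a replicate block with numbers crossed in the BDNF groups. The crossed block was chosen after seeing the data and is counted among the 17 alternatives. A prior count of 0.5 changed only log2 CPM differences, had no test and is not counted.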

Additional observations from a re-analysis of the deposited data

How the results depend on the processing

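Arc, Egr1, Egr2 and Egr4 kept their direction and their call with BDNF under both viruses in every alternative run. Of the 9 genes, DESeq2 called 4 with BDNF under the control virus, and leaving out 1 library at a time gave 4 to 7. For H2BE against Control 1 was called with no filter and 2 with only the groups compared, and for H2BE+BDNF against BDNF 0 to 1 with 1 library left out. For the difference of responses 1 was called with no filter and 0 to 2 with 1 library left out. Some values near 0 changed sign. Nr4a2 with BDNF under the control virus was 0.01 with all 10 libraries and -0.29 to 0.09 with 1 library left out, and over both viruses -0.06 to 0.13. Under the H2BE virus, leaving out 1 library gave -0.29 to 0.81 for Egr3, -0.12 to 0.17 for Nr4a3 and -0.12 to 0.10 for Npas4, which was 0.03 with the length and GC correction. Of 33 other values of these genes in the virus comparisons and the difference, 22 changed sign in some alternative and 0 were called with both signs. The alternatives for the gene lists were added after seeing the data. Deviations between the libraries of a group correlated over genes at -0.17 for Control with BDNF and at -0.299 for H2BE with H2BE+BDNF. Same-numbered libraries thus did not deviate alike. A single correlation per virus cannot tell whether the samples were paired. With the replicate block 7 of the 9 genes were called with BDNF under the control virus, 4 under the H2BE virus, 6 over both and 0 for each virus effect and for the difference. Counts over all 13452 genes moved more. For BDNF against Control they were 4225 as reported, 6465 with all 10 libraries, 2512 by DESeq2 and 2278 to 4499 with 1 library left out. For H2BE+BDNF against H2BE they were 3466 as reported, 2226 by DESeq2 and 1818 to 4157. For H2BE against Control they were 287 as reported, 559 with no filter, 1611 with all 10 libraries, 140 with the replicate block, 1130 with only the groups compared, 19 with the length and GC correction and 2 to 890 with 1 library left out. For H2BE+BDNF against BDNF they were 3 as reported, 216, 24, 1 with replicate 3 in place of 1, 119 with the replicate block, 1 with only the groups compared, 15 by DESeq2 and 1 to 764. For the difference they were 155 as reported, 440, 1169, 349, 245, 5 with the length and GC correction and 0 to 897, and for the mean H2BE effect 22 as reported, 273, 203, 4, 81, 37 by DESeq2 and 4 to 651, in the same order of settings. With numbers crossed in the BDNF groups, chosen after seeing the data, the counts over all genes were 1, 1, 0 and 1 in the last 4 of these comparisons. The cause of these moves was not tested. Depth limits Arc, Egr2 and Egr3 most, since some of their libraries hold fewer than 20 counts.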
